A study of Mus musculus with 23 samples.

Results

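Red cell precursors were taken from mouse bone marrow in small clumps, and the cells compared here are those precursors, split by the kind of cell they were attached to. A dissected cell was counted as erythroid when at least 4 of 10 defining genes (Car1, Car2, Klf1, Slc4a1, Rhd, Cldn13, Hemgn, Tspan33, Trim10 and Minpp1) had a transcript, among cells with at least 1000 transcripts. By this rule 298 of 707 kept dissected cells were erythroid, so the members were chosen by their measured transcripts of these 10 genes, whose levels are given as a description only. Of these, 106 shared a clump with erythroid cells only, 108 had at least 1 non-erythroid partner, and 84 were the only kept cell of their clump. The 214 cells with a kept partner are the members described below. They came from a table of 1915 cells in all.

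The study flushed the marrow gently, cut small attached groups out of larger aggregates with needles, separated them into single cells and sequenced each cell's messenger RNA by CEL-seq, a method that counts molecules by short tags at the 3′ end of a transcript. The table holds 17 libraries of micro-dissected cells, called replicates by number below, and 4 libraries of sorted haematopoietic stem cells (HSC; Lineage- Kit+ Sca1+ CD150+ CD48-), which serve as cells that should lack globin and secondary granule transcripts. All groups are untreated mouse bone marrow, and the labels name no strain, age, genotype or animal, so a p-value here speaks of the variation from library to library, part of which can be technical. A cell that fell under 1000 transcripts could not be seen, so an erythroid cell called free of non-erythroid partners may have lost one.

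Red cell precursors mature in the marrow through stages at which they first divide and build the machinery of growth, then fill with haemoglobin, reshape their membrane skeleton and shed organelles and the nucleus. Many do so in erythroblastic islands, in which precursors sit around a central macrophage. The transcription factors Gata1, Tal1 and Klf1 switch on the genes of haem synthesis, globin chains and the red cell membrane. Granulocytes mature alongside, through promyelocytes with primary granules (Elane, Mpo, Prtn3) and myelocytes with secondary granules (Ngp, Camp, Ltf) to neutrophils.

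Among the 10 defining genes and the 3 genes that both passed the test described below and lay on 1 side in 3 in 4 libraries, RefSeq promoters on GRCm38.p6 were found for 8 of 13. The 250 bases before the start are shown for those that hold the letters AGATAA, a word bound by GATA factors, on either strand (capitals). These were Rhd, the Rh blood group protein, at chr4:134864286-134864535 on the plus strand, Trim10, a ubiquitin ligase of red cell precursors, at chr17:36869324-36869573 on the plus strand, and S100a11, a calcium-binding protein, at chr3:93520246-93520495 on the plus strand.

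Rhd: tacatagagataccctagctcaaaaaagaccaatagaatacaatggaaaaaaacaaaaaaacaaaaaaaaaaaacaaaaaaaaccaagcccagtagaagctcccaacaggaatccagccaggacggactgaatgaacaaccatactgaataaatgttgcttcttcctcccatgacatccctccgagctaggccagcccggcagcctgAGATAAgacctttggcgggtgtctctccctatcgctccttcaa

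Trim10: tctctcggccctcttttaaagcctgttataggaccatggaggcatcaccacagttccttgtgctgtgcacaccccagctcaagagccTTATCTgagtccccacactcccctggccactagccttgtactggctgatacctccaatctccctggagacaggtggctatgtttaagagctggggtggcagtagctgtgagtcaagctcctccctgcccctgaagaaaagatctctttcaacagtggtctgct

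S100a11: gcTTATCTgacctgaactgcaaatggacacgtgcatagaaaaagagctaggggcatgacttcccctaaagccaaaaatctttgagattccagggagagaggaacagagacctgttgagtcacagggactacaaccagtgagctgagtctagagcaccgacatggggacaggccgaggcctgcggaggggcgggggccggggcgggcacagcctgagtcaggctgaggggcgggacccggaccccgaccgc

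AGATAA was present in 9.99% of 32851 promoter windows of the same length, and in 3 of the 8 genes with a promoter here. It was absent from the windows of Ly6c2, Klf1, Hemgn, Tspan33 and Minpp1. None of the other words searched on both strands (CCACACCC, TTGCNNAA and AGGAAGT) was in the 3 windows shown. Among the windows not shown, AGGAAGT was in both of Ly6c2 and TTGCNNAA in that of Tspan33. A match is a description of letters and no site was measured.

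Erythroid cells were found in all 17 libraries, and those with a kept partner in 14. Their number ran from 3 in replicates 7 and 8 to 33 in replicate 16 (the plot of erythroid cells by library). There were 214 clumps with at least 2 kept cells, of which 50 were wholly erythroid, 89 mixed and 75 without an erythroid cell. Of the 108 erythroid cells with a non-erythroid partner, 70 had only such partners and 38 also had an erythroid one. The share of members with a non-erythroid partner was 50.5% (95% exact binomial interval 43.6 to 57.4, counting error only). Over the 12 libraries with at least 5 such cells the mean was 54.4% ± 24.9 (SD), from 20.0% in replicate 3 to 100% in replicate 12, with a median of 64.7%.

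**Figure D1:**
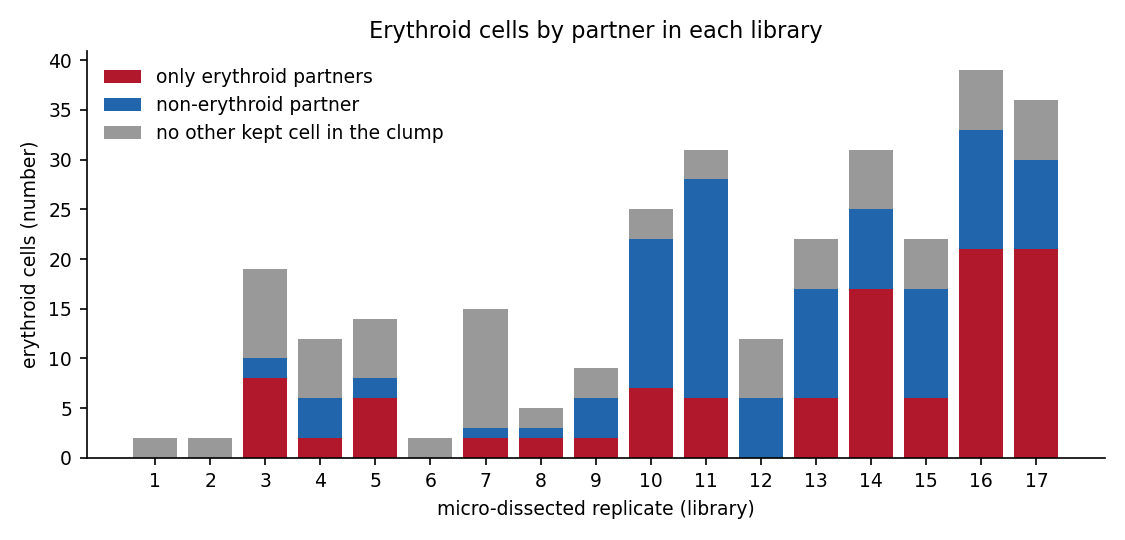
Number of erythroid cells (y axis) in each micro-dissected replicate (x axis), stacked by partner type. Replicates 1, 2 and 6 held only erythroid cells without a kept partner, and replicate 12 held none with only erythroid partners.

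Depth pooled over libraries was similar in the 2 partner groups. The median was 2142 transcripts per cell with only erythroid partners and 1942 with a non-erythroid partner, against 2095 in erythroid cells alone, 3270 in the non-erythroid partners and 1926 in sorted HSC. Within libraries the medians differed in both directions. They were 2145 with only erythroid partners and 5425 with a non-erythroid partner in replicate 3, and 2261 and 1489 in replicate 14. No cell name occurred in more than 1 library.

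The label holds for most members but not for all. The 43 genes of 4 granulocyte lists (promyelocyte, myelocyte and metamyelocyte, mature neutrophil, eosinophil) gave at least 5% of the transcripts in 38 of the 298 erythroid cells, a bound chosen after seeing the data. These 38 cells had a median of 17.9% granulocyte transcripts, and their red cell membrane genes summed to a median of 0.343%, against 0.547% and 1.87% in the other 260. Median depth was 3541 transcripts in the 38 and 1944 in the other 260. Of the 38, 33 stood at 4 or 5 defining genes, against 37 of the other 260. In 7 of them the eosinophil list gave most of the granulocyte transcripts. They lay in 11 of 17 libraries. By partner, they were 6 of 106 cells with only erythroid partners (5.66%), 21 of 108 with a non-erythroid partner (19.4%) and 11 of 84 alone (13.1%). None of 245 sorted HSC reached 5%.

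**Figure D2:**
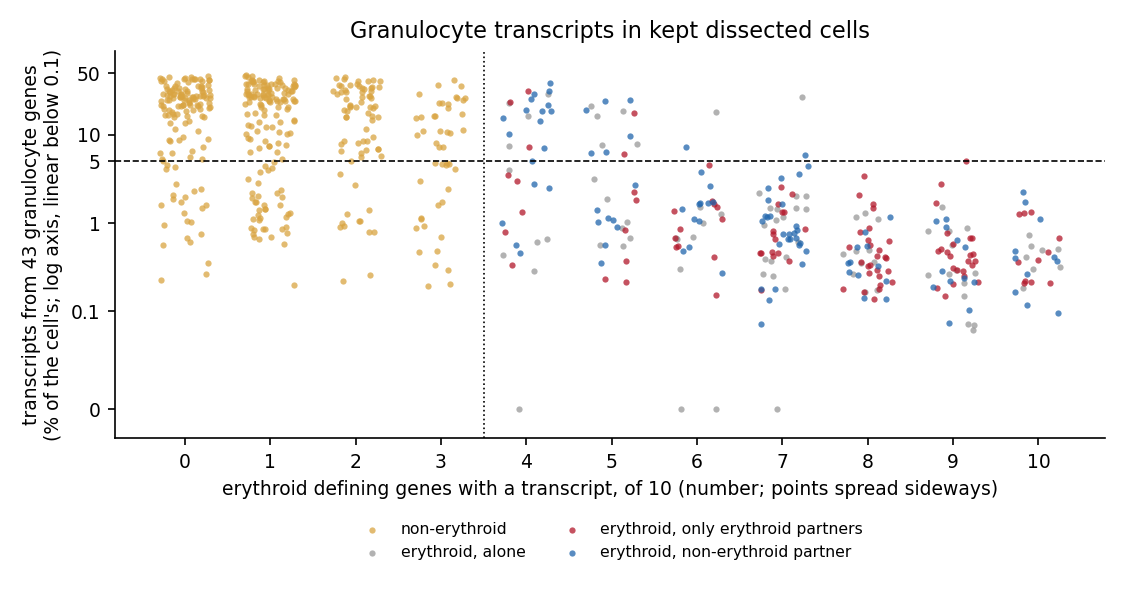
Share of each kept dissected cell's transcripts that came from 43 granulocyte genes (y axis, log scale above 0.1%) against the number of the 10 defining genes with a transcript (x axis); each point is a cell, the dotted line is the bound for erythroid cells and the dashed line is 5%. Of the 38 erythroid cells on or above the dashed line, 33 stand at 4 or 5 genes.

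On both sides of the bound of 4 genes the cells were alike in these measures. The 47 cells just outside it, at 3 genes, had a median of 8.18% granulocyte and 0.227% membrane transcripts, and the 36 just inside, at 4 genes, had 7.18% and 0.344%. At 5 genes the medians were 1.85% and 1.27%, and at 8 genes 0.362% and 2.29%. The results on genes and gene lists below are therefore also given without the 38 granulocyte-rich cells (86 and 79 cells in 9 libraries for the gene test) and for cells with at least 6 defining genes (74 and 82 cells in 10 libraries). With 6 genes required, cells with fewer genes count as non-erythroid partners.

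The partners were mostly cells of the neutrophil line. Each of the 108 non-erythroid partners was given its leading list among the lists of non-erythroid cell types only, with no lowest share required. This was the list of myelocytes and metamyelocytes in 77, promyelocytes in 11, eosinophils in 6 and macrophages in 6. Plasma cells led in 4, monocytes and dendritic cells in 2, and mature neutrophils and megakaryocytes in 1 each. The 43 granulocyte genes gave at least 5% of transcripts in 79 of the 108. Single partners held up to 3.75% of transcripts from the defining genes and up to 5.07% from globins. At least 4 of the 12 myelocyte genes were present in 104 of 108 partners. The same was true of 67 of 106 erythroid cells with only erythroid partners and 85 of 108 with a non-erythroid partner, so presence of these transcripts alone does not separate the classes. Their share differed in its median and overlapped between the classes: the myelocyte list had a median of 10.7% of transcripts in the partners, 0.690% in erythroid cells with a non-erythroid partner and 0.385% in those with only erythroid partners. At least 2% of transcripts came from this list in 76 of 108 partners, 21 of 108 erythroid cells with a non-erythroid partner and 9 of 106 with only erythroid partners. The 6 partners led by macrophage genes, the cell at the centre of an erythroblastic island, were attached to 9 erythroid cells in 5 libraries. Of the partners, 27 had none of the 10 defining genes, 43 had 1, 24 had 2 and 14 had 3.

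For the gene comparison, transcripts were summed within each library and partner group, and groups with at least 2 cells on each side were used. This left 102 cells with only erythroid partners and 100 with a non-erythroid partner in 11 libraries, with sums of 3668 to 74330 and 3529 to 76704 transcripts. Of 976 genes tested, 4 were higher with a non-erythroid partner at an adjusted p under 0.05 (0.41%; edgeR's quasi-likelihood test with the library as a block and Benjamini-Hochberg adjustment) and none was lower (0%). At an unadjusted p under 0.05 there were 19 higher and 9 lower genes. DESeq2 called 5 higher and 0 lower. On simulated tables of the same size the test called 65.2% of genes changed by 2-fold and 100% of those changed by 4-fold. Those tables held many more changed genes than were called here, which loosens the adjusted threshold, and used the fitted dispersions. The shares are therefore not the power of the test on the measured data. There Prg2, at a log2 fold change of 1.72, was not called (edgeR adjusted p = 0.997).

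The 4 genes were Serpinb1a, Cd63, Ly6c2 and S100a11. Levels below are in CPM, the part of a group's summed transcripts that came from the gene, scaled to 1000000. Serpinb1a, an inhibitor of neutrophil granule proteases (GRCm38 chromosome 13, 32842092 to 32851185), had a lowest, median and highest level of 0, 148 and 601 CPM over the 11 libraries with only erythroid partners and of 0, 471 and 3791 CPM with a non-erythroid partner. It was higher with a non-erythroid partner in 10 of 11 libraries and at 0 in both groups of replicate 17, although the ranges of the 2 groups overlapped. The log2 fold change was 1.75 ± 0.37 (SE; edgeR adjusted p = 0.0187). Ly6c2, a surface protein of monocytes and immature granulocytes whose reads may be shared with its near copy Ly6c1 (chromosome 15, 75108158 to 75111970), stood at 0, 82.4 and 989 CPM against 30.6, 469 and 3362 CPM. It was higher in 9 of 11 libraries, by a log2 fold change of 1.65 ± 0.40 (edgeR adjusted p = 0.0390).

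S100a11, which is made in many cell types (chromosome 3, 93520488 to 93526287), stood at 0, 46.5 and 621 CPM with only erythroid partners and at 0, 305 and 1036 CPM with a non-erythroid partner. It was higher in 10 of 11 libraries, with a log2 fold change of 1.58 ± 0.39 (edgeR adjusted p = 0.0390). Cd63, a tetraspanin of granule and lysosome membranes (chromosome 10, 128900989 to 128912822), stood at 0, 133 and 930 CPM against 0, 298 and 2120 CPM. It was higher in only 8 of 11 libraries, with a log2 fold change of 1.73 ± 0.40 (edgeR adjusted p = 0.0330). All 4 were more abundant in the non-erythroid partners themselves, whose pooled levels were 2059 CPM for Serpinb1a, 2910 CPM for Ly6c2, 1284 CPM for S100a11 and 1540 CPM for Cd63.

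**Figure D3:**
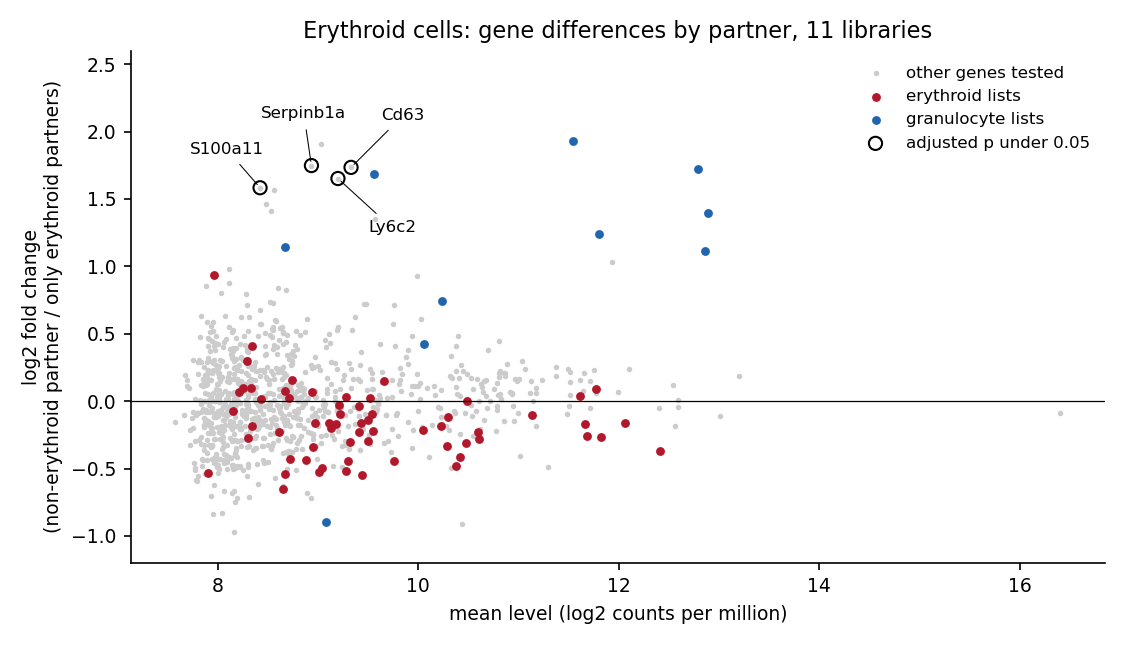
Log2 fold change between erythroid cells with a non-erythroid partner and those with only erythroid partners (y axis) against mean level in log2 CPM (x axis) for the 976 genes tested over 11 libraries. The 4 ringed genes had an adjusted p under 0.05; points for erythroid and granulocyte lists are coloured.

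These calls moved with the granulocyte-rich cells and with single libraries. Without the granulocyte-rich cells edgeR called 0 of 1101 genes (0%; 26 at an unadjusted p under 0.05), and with at least 6 defining genes 0 of 850 (0%; 9 at an unadjusted p under 0.05); in both, all 4 genes were too low to be tested. Serpinb1a then stood at a mean of 116 CPM with only erythroid partners and 113 CPM with a non-erythroid partner without the granulocyte-rich cells (higher in 3 of 9 libraries), and at 148 and 87.4 CPM with at least 6 genes. Ly6c2 stood at 79.9 and 157 CPM (higher in 5 of 9) and at 133 and 122 CPM. S100a11 stood at 35.6 and 97.4 CPM (higher in 4 of 9) and at 55.3 and 36.7 CPM. Cd63 stood at 147 and 60.2 CPM (higher in 1 of 9) and at 91.0 and 79.0 CPM. No gene was called without replicate 3, 9 or 13, 1 without replicate 4 or 5, 2 without replicate 10 or 16, 8 without replicate 11 and 6 without replicate 17.

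The next 4 genes on the higher side did not pass, and none of them is on an erythroid list. Coro1a, an actin-binding protein of leukocytes, had a log2 fold change of 1.57 ± 0.41 (edgeR adjusted p = 0.0669), and Arhgdib, a GDP-dissociation inhibitor of blood cells, of 1.35 ± 0.37 (adjusted p = 0.109). The glycolytic enzyme Pkm had 1.41 ± 0.41 and the chromatin protein Hmgn2 0.93 ± 0.30. On the lower side Memo1, Snx1, Ncor1, Cxcr2 and Emilin2 had the smallest p-values, with log2 fold changes of -0.97, -0.83, -0.84, -0.90 and -0.75 and none passing. Cxcr2, a chemokine receptor of neutrophils, was the member of the mature neutrophil list that was tested. It stood at 0, 545 and 1891 CPM with only erythroid partners and at 0, 237 and 644 CPM with a non-erythroid partner, and was lower in 8 of 11 libraries. It had a transcript in 43.4% and 39.8% of the erythroid cells and in 40.8% of sorted HSC.

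The summed granulocyte genes had a higher mean with a non-erythroid partner, with a wide spread, and the 4 lists did not all lie on that side. All 43 granulocyte genes together summed to 21002 ± 20862 CPM (SD, n = 11) with only erythroid partners and to 57040 ± 42067 CPM with a non-erythroid partner, higher in 8 of 11 libraries. In CPM, the lowest, median and highest were 3349, 12347 and 61916 against 2973, 55333 and 112869, so the groups overlapped. Lone erythroid cells had a median of 6203 CPM over 17 libraries, the partners 154390 CPM over 12 libraries, and sorted HSC 1355 CPM over 4. The mean of lone cells was 35016 ± 57633 CPM (SD), with a highest library of 227299 CPM. By the mean, lone cells therefore lay between the 2 partner groups. By list, the promyelocyte genes summed to means of 862 ± 1183 and 4516 ± 8068 CPM (SD, n = 11; higher with a non-erythroid partner in 9 of 11 libraries). The myelocyte genes summed to 14168 ± 18032 and 32538 ± 30975 CPM (higher in 6 of 11) and the eosinophil genes to 4251 ± 9464 and 19045 ± 33277 CPM (higher in 7 of 11). Medians were 511 and 1084 CPM for promyelocyte genes, 6349 and 30077 CPM for myelocyte genes and 341 and 400 CPM for eosinophil genes. The eosinophil means therefore rested on a few libraries. The sum of the mature neutrophil genes lay the other way, at 1719 ± 2028 and 942 ± 811 CPM (SD, n = 11; higher in 3 of 11). Its members were mixed. Cxcr2 had means of 644 and 254 CPM, and a pooled level of 298 CPM in sorted HSC. Retnlg was higher with a non-erythroid partner in 6 of 11 libraries and Mmp8 in 4. Of the 7 myelocyte genes tested all 7 had a fold change above 1, with a median log2 of 1.24 against -0.01 for all genes, and none was called. S100a8 and S100a9, the calprotectin subunits of neutrophils, had log2 fold changes of 1.40 ± 0.77 and 1.12 ± 0.78 and were higher in 7 and 5 of 11 libraries. Ngp, a secondary granule protein, had 1.24 ± 0.80, and Prg2, the eosinophil major basic protein, had 1.72 ± 0.61 (edgeR adjusted p = 0.997 for each).

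By single genes, Ngp stood at 270, 802 and 9402 CPM in the lowest, median and highest library with only erythroid partners and at 246, 2630 and 16189 CPM with a non-erythroid partner. Prg2 stood at 0, 217 and 16072 CPM against 0, 333 and 58093 CPM, so its means of 2194 and 10094 CPM rested on a few libraries. The primary granule genes Elane, Prtn3 and Mpo did not pass the filter on low counts. Elane had medians of 55.9 and 133 CPM, Prtn3 of 80.7 and 153 CPM and Mpo of 112 and 178 CPM. Their means were 114 and 1491 CPM, 198 and 774 CPM, and 178 and 748 CPM. With a non-erythroid partner, replicate 3 was the highest library for all 3, with Elane at 12300 CPM. Retnlg and Mmp8, made in maturing neutrophils, had medians of 80.7 and 92.4 CPM and of 13.4 and 0 CPM, and means of 458 and 312 CPM and of 201 and 73.4 CPM. Ear1 and Epx, further eosinophil granule proteins, had medians of 50.7 and 66.4 CPM and of 15.5 and 0 CPM.

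Without the granulocyte-rich cells the granulocyte sum was 8726 ± 5741 CPM (SD, n = 9) with only erythroid partners and 8547 ± 5464 CPM with a non-erythroid partner, and with at least 6 defining genes 9609 ± 7854 (n = 10) and 7331 ± 5372 CPM. The removed cells were chosen by these same 43 genes and were more frequent beside a non-erythroid partner, so the first of these changes follows from how they were chosen. Requiring 6 genes used only the defining genes, but 33 of the 38 granulocyte-rich cells stood at 4 or 5 of them. That setting therefore left out most of the same cells and is not a separate check. Both groups stayed above sorted HSC. The log2 fold change of Ngp was 0.01 without the granulocyte-rich cells and -0.14 with at least 6 genes, and that of S100a8 was 0.21 and 0.22.

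**Figure D4:**
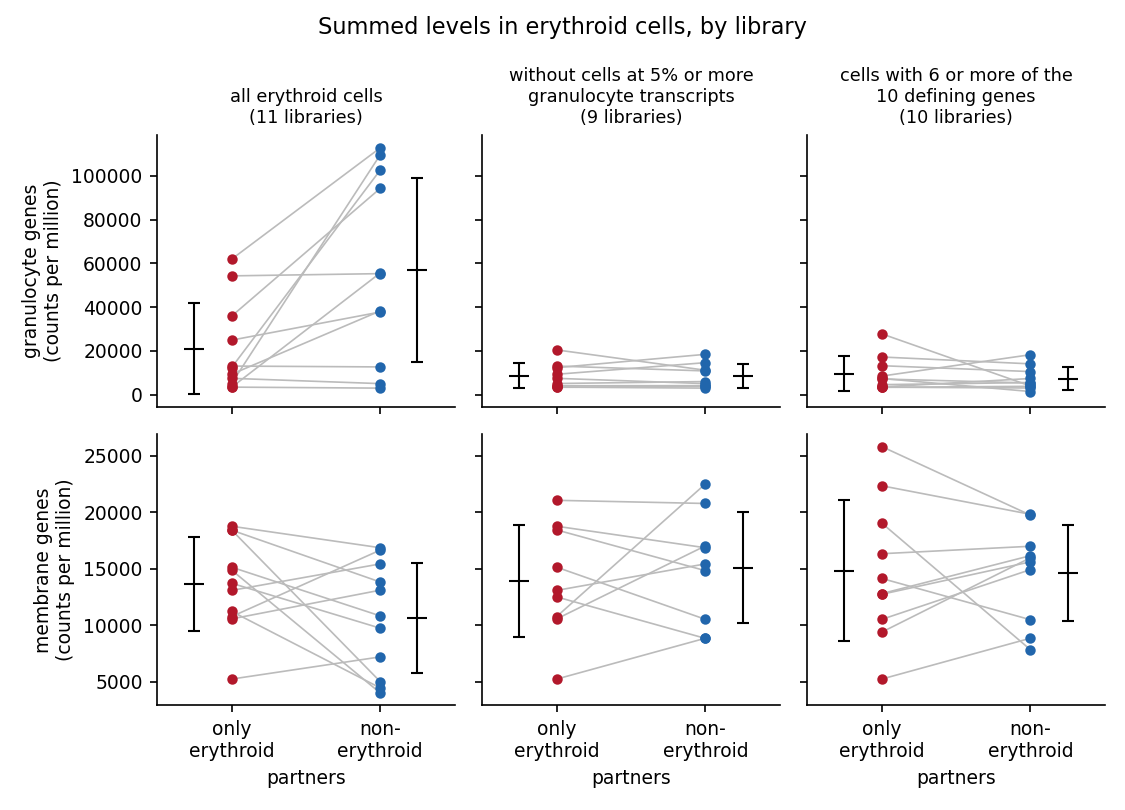
Summed CPM of 43 granulocyte genes (top) and of red cell membrane genes (bottom) in erythroid cells by partner type; each point is a library, lines join the groups of a library, and bars give mean ± SD. In the left column the mean granulocyte sum is 21002 against 57040 CPM, and in the middle column, without granulocyte-rich cells, 8726 against 8547 CPM.

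Ngp transcripts were present in most erythroid cells of either group. They were found in 70 of 106 cells with only erythroid partners (66.0%) and 86 of 108 with a non-erythroid partner (79.6%), against 2 of 245 sorted HSC (0.816%), at median depths of 2142, 1942 and 1926 transcripts. After thinning every cell to 1000 tags, which left out 7 and 4 cells of the partner groups, the shares were 43.4%, 63.5% and 0.816%. Without granulocyte-rich cells the thinned shares were 40.9% and 56.6%. All shares in this paragraph pool cells over libraries, to which the 2 groups contributed unequally. Replicate 17 held 21 cells with only erythroid partners and 9 with a non-erythroid partner, and replicate 11 held 6 and 22. The shares are therefore no comparison within libraries. In the fit within libraries without granulocyte-rich cells, log2 fold changes were 0.01 for Ngp (higher in 4 of 9) and -0.22 for Prg2 (6 of 9). Prg2 had a transcript in 36.8% and 53.7% of cells (22.2% and 38.5% thinned) and in 0 of 245 sorted HSC, which allows a share of up to 1.49% (95% exact interval). Prg2 was found in 49.1% of the partners (32.4% thinned), close to the share in the erythroid cells beside them, although eosinophil genes led in only 6 partners. Prtn3, a primary granule gene, had a transcript in 31.8% of sorted HSC, more than in the erythroid cells of either group (20.8% and 23.1%), so sorted HSC give no background for that gene. Sorted HSC were prepared apart from the dissected cells, so these shares do not separate expression from free RNA of the same marrow.

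Erythroid cells beside a partner rich in a list had a slightly higher median from that list than the others in each list compared here, and the groups overlapped. Erythroid cells whose partner had at least 2% of its transcripts from the myelocyte list had a median of 0.698% from that list (75 cells), and those whose partner had less had 0.682% (33 cells), with upper quartiles of 1.65% and 1.02%. For the eosinophil list the medians were 0.0725% (6 cells) and 0.0616% (102 cells), and the upper quartiles, 0.130% and 0.282%, lay the other way. For the promyelocyte list the medians were 0.0600% (31 cells) and 0.0466% (77 cells), and for the mature neutrophil list 0.0524% (6 cells) and 0.0491% (102 cells). For the macrophage list they were 0.0155% (9 cells) and 0% (99 cells). The 106 erythroid cells with only erythroid partners had medians of 0.385% (myelocyte), 0.0195% (eosinophil), 0.0247% (promyelocyte), 0.0518% (mature neutrophil) and 0.0203% (macrophage). That macrophage median lay above the one beside macrophage-rich partners. Apart from the myelocyte list all these medians lay near the floor, so their common direction shows no match between a cell and its partner. No test was made over cells, which share libraries and clumps.

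Macrophage transcripts were few in both groups. The 14 genes of the list summed to 1319 ± 2012 CPM (SD, n = 11) with only erythroid partners and 768 ± 1572 CPM with a non-erythroid partner, and none passed the filter on low counts. Hmox1, which breaks down haem, had means of 345 and 127 CPM, Apoe, a lipid carrier, of 172 and 89.6 CPM, and Vcam1, the adhesion molecule of island macrophages, of 121 and 127 CPM. Among the adhesion genes of erythroblastic islands only Itga4 and Cd47 were tested, with log2 fold changes of -0.29 and 0.15 and none called.

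No erythroid gene was called between the partner groups. Among the lists of globins, haem and iron, membrane and skeleton, transcription factors, early growth, late remodelling and cell cycle, 0 of 94 tested members were called in either direction, against 0.41% of all genes tested, so a count of 0 is close to that background and shows no likeness of the groups. Their mean levels were mostly lower with a non-erythroid partner when all members were counted. The 10 defining genes, given without a test because they chose the cells, summed to 15392 ± 3429 CPM (SD, n = 11) with only erythroid partners and 12648 ± 5545 CPM with a non-erythroid partner, lower in 8 of 11 libraries. Without granulocyte-rich cells the sums were 16254 ± 4209 and 17496 ± 4959 CPM (n = 9), and with at least 6 genes 17310 ± 5565 and 17614 ± 4472 CPM (n = 10).

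Among the defining genes, Car2, a carbonic anhydrase that is abundant in red cells, stood at a mean of 6092 and 4731 CPM, and Slc4a1, the band 3 anion exchanger of the red cell membrane, at 3039 and 3013 CPM. Hemgn, a nuclear protein of blood precursors, stood at 1547 and 1141 CPM and Rhd at 1209 and 1010 CPM. Car1 stood at 922 and 637 CPM, Cldn13, a claudin of mouse precursors, at 656 and 432 CPM, and Klf1, the transcription factor of globin and membrane genes, at 503 and 453 CPM. Tspan33, a tetraspanin, was the only one with a higher mean beside a non-erythroid partner, and its medians were 509 and 507 CPM. Trim10 stood at 454 and 383 CPM and Minpp1, an inositol phosphate phosphatase, at 427 and 224 CPM.

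The globins summed to 6531 ± 5586 CPM (SD, n = 11) with only erythroid partners and 5881 ± 4391 CPM with a non-erythroid partner, higher in 5 of 11 libraries. The spread over libraries within a group was larger than the difference. Hbb-b1, a beta globin chain, stood at 105, 2199 and 10959 CPM in the lowest, median and highest library with only erythroid partners and at 355, 1577 and 8516 CPM with a non-erythroid partner (log2 fold change 0.09 ± 0.30). Hba-a1, an alpha chain, stood at 52.5, 2240 and 4518 CPM against 178, 1872 and 3464 CPM (-0.10 ± 0.43). Hbb-b2 had -0.17 ± 0.36. The globin copies are near-identical, so reads may be split among them.

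Haem and iron genes summed to 19178 ± 6438 and 16371 ± 6818 CPM (SD, n = 11), higher with a non-erythroid partner in 4 of 11 libraries. Of 15 tested, 12 had a log2 fold change below 0, with a median of -0.17. The ferritin chains Fth1 and Ftl1, which store iron, had log2 fold changes of -0.27 ± 0.24 and -0.17 ± 0.24. Without granulocyte-rich cells 14 of 15 tested members lay above 0, with a median of 0.21.

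Membrane and skeleton genes summed to 13676 ± 4129 CPM (SD, n = 11) with only erythroid partners and 10662 ± 4908 CPM with a non-erythroid partner. Of 15 tested, 13 lay below 0, with a median log2 fold change of -0.42. Among the abundant members, Cd24a, a surface glycoprotein of precursors, had -0.16 ± 0.25, and Aqp1, a water channel, had -0.42 ± 0.28. Without granulocyte-rich cells the sums were 13967 ± 4946 and 15089 ± 4915 CPM, 8 of 15 members lay above 0, and the median was 0.08. With at least 6 genes the sums were 14854 ± 6207 and 14657 ± 4223 CPM.

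The erythroid transcription factors summed to 4906 ± 1655 and 4083 ± 1400 CPM (SD, n = 11). E2f2, a cell cycle factor of late precursors, had a log2 fold change of 0.15 ± 0.30, and Lmo2 and Tal1, partners in the complex with Gata1, of -0.30 ± 0.29 and -0.30 ± 0.31. Early growth genes summed to 13555 ± 6164 and 14279 ± 6204 CPM, with Ptma at 0.19 ± 0.22, Ran, a nuclear transport GTPase, at -0.04 ± 0.26 and the translation factor Eif5a at 0.38 ± 0.32. Late remodelling genes summed to 8437 ± 3034 and 7441 ± 3078 CPM. The peroxiredoxin Prdx2, abundant in red cells, had -0.26 ± 0.25, Bnip3l, which directs mitochondrial clearance, had -0.10 ± 0.34, and the ubiquitin-conjugating enzyme Ube2l6 had 0.02 ± 0.30. The 34 cell cycle genes summed to 29325 ± 5564 and 27522 ± 6183 CPM, and 17 of 33 tested lay above 0. Without granulocyte-rich cells the transcription factors summed to 5138 and 5176 CPM and the cell cycle genes to 29438 and 31799 CPM.

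The cells of the 2 groups did not differ detectably in RNA content or complexity. The mean log2 transcripts per cell was higher with a non-erythroid partner by 0.09 ± 0.41 (SD over 11 libraries; higher in 8), with an exact 2-sided sign-flip permutation p of 0.459 (0.459 after Benjamini-Hochberg adjustment over 3 such tests). In cells thinned to 1000 tags the number of genes detected was lower by a mean of -7.47 ± 32.5 genes (exact permutation p = 0.455, adjusted 0.459). Without granulocyte-rich cells the differences were -0.079 and -9.77 genes (n = 9), and with at least 6 defining genes 0.017 and -6.48 genes (n = 10). These p-values do not show that the groups are alike.

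Erythroid cells of 1 clump were compared with erythroid cells of different clumps of the same library, and their mean likeness was slightly higher. Likeness was the Pearson correlation of log2(tags + 1) across genes outside the 10 defining ones, in cells thinned to 1000 tags. It averaged 0.396 ± 0.029 (SD over 10 libraries) over 69 pairs within clumps and 0.373 ± 0.040 over 847 pairs between clumps. The mean difference was 0.0228 ± 0.0314, above 0 in 7 of 10 libraries, from -0.0217 in replicate 13 to 0.0846 in replicate 3 (exact permutation p = 0.0391, adjusted 0.117), and so did not pass after adjustment. It was 0.0181 in 9 libraries without granulocyte-rich cells (exact permutation test, adjusted p = 0.141) and 0.0189 in 9 libraries with at least 6 defining genes (adjusted p = 0.164). Libraries held 2 to 14 pairs within clumps.

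**Figure D5:**
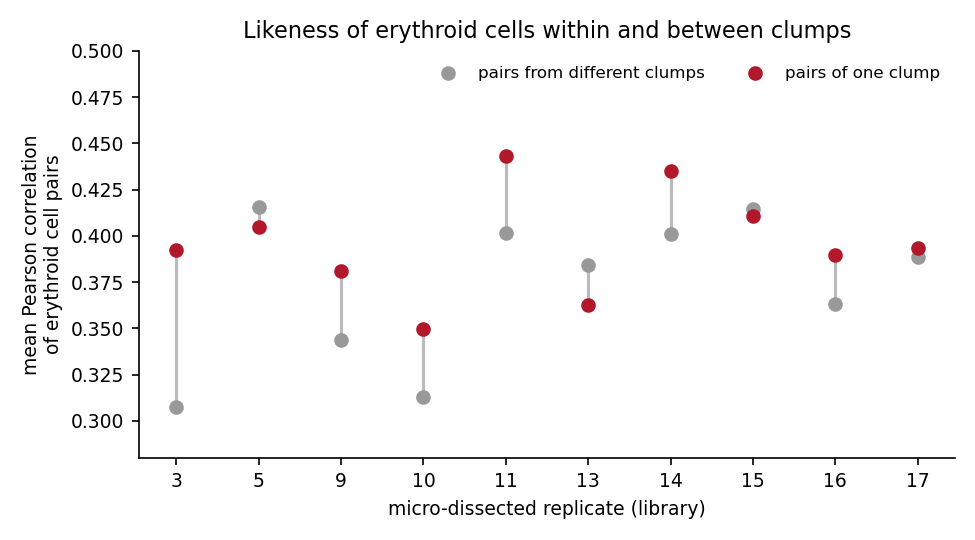
Mean Pearson correlation of erythroid cell pairs (y axis, which does not start at 0) within clumps and between clumps in each of 10 micro-dissected replicates (x axis). Pairs of 1 clump are higher in 7 of the 10.

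The mirror comparison asked whether non-erythroid cells carried globin transcripts more when attached to an erythroid cell. In 11 libraries their globin level was 464 ± 712 CPM (SD) with an erythroid partner (108 cells in all) and 867 ± 1441 CPM without one (158 cells in all), and it was higher with an erythroid partner in 3 of 11 libraries. Medians were 175 and 251 CPM, against a mean of 6.27 ± 7.98 CPM in 4 libraries of sorted HSC. The groups overlapped widely, and no test was made. Replicate 3, at 1154 and 4986 CPM, carried most of the difference, which was -403 CPM over all 11 libraries and -60.4 CPM without that replicate.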

How the data were processed

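Single cells of micro-dissected mouse bone marrow clumps and sorted HSC were measured by CEL-seq. The submitters' processing notes name BWA 0.6.2-r126 and the mouse build mm10. For annotation and read filters, the sources used here give nothing. The table deposited by the authors holds estimated counts (expected counts) of transcripts for 23536 genes and 1915 cells, corrected for repeated draws from 256 tags, as checked from the values. Dissected replicate 18 and sorted HSC replicate 2 were not analysed here, nor were the per-library files.

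Clump numbers were read from cell names; 1 cell without a clump number was taken as alone. Cells with 1000 or more transcripts were kept (707 of 1546 dissected, 245 of 369 sorted). Doublets were not called, since cells were placed by hand; the deepest 5% of cells were removed in an alternative. Sums per library and partner group were rounded and tested with edgeR 4.0.16 (TMM, filterByExpr with a minimum count of 3 and total of 15, robust quasi-likelihood, library block); DESeq2 1.42.0 was an alternative. Library sums of 3529 to 76704 transcripts limit precision for low genes. Replicates are numbered in accession order and pair nothing; both groups come from each library, which is the block. Single values took exact sign-flip tests over libraries. Intervals cover counting error only. The fit was tested on simulated data, in which 0.792% of unchanged genes were called. Gene positions are from GENCODE vM21 on GRCm38, which is mm10; 53 of 55 named genes were placed.

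The members and gene lists were chosen with earlier results of these data known. Named genes were the 8 highest and 8 lowest fold changes past an adjusted p of 0.05 and on that side in 3 in 4 libraries, else the smallest p up to 5 per direction; the 3 most abundant members of the erythroid and myeloid lists; and the 10 defining genes. Single values of some genes that this rule names are not reported here.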

Additional observations from a re-analysis of the deposited data

How the results depend on the processing

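All calls in every setting run were higher with a non-erythroid partner, and the number of calls was unstable. Against 4 in the reported fit, the count was 34 with erythroid cells at 3 or more defining genes and 0 at 5 or more, 0 at 6 or more and 0 without granulocyte-rich cells (both chosen after seeing the data), 0 with partners at most at 1 defining gene, 1 at 2000 transcripts per cell, 0 without cells with muscle transcripts, 0 with a minimum count of 10 (241 genes tested), 0 with no filter (12160 genes tested), 2 with 1 or more and 0 with 3 or more cells per library and group, and 0 with cells thinned to 1000 tags (333 genes tested). Without the library block (no replicate block) the count was 0; no other pairing was possible because the replicate numbers pair nothing. It was 4 or 5 in clumps of exactly 2 kept cells, without the deepest 5% of cells, with partners of the neutrophil line only, with RLE factors, library totals, without globin genes and with DESeq2. Leaving out 1 library at a time gave 0 to 8 calls. Where the 4 genes were tested, their log2 fold changes stayed above 0: 1.16 to 2.11 for Serpinb1a (called in 17 of 26), 0.90 to 2.16 for Ly6c2 (13 of 25), 1.31 to 2.23 for S100a11 (10 of 17) and 1.20 to 1.95 for Cd63 (11 of 23). A gene was tested only where it passed the filter on low counts, so this constant sign does not show stability. At 6 or more genes none of the 4 was tested, and all 4 had lower means with a non-erythroid partner. Without granulocyte-rich cells, again untested, Serpinb1a and Cd63 had lower means with a non-erythroid partner, and Ly6c2 and S100a11 higher ones. The cause was not tested where a setting changed the cells; fewer genes or libraries entered several fits.

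The difference in log2 transcripts per cell turned to -0.090 without the deepest 5% of cells and to -0.079 without granulocyte-rich cells (0.02 to 0.16 leaving out a library), and that in genes per cell to 1.46 at 5 or more defining genes (-12.8 to -3.25 leaving out a library). The likeness difference passed in 2 alternatives only. It was 0.0455 (adjusted exact permutation p = 0.0352) with erythroid cells at 3 or more genes. With all erythroid cells in the pairs between clumps, an alternative chosen after seeing the data, it was 0.0331 (adjusted 0.0410). It fell to 0.00098 at 2000 transcripts per cell (5 libraries). In clumps of exactly 2 kept cells it was 0.0269 (adjusted exact permutation p = 0.574). For pairs not next to each other in the table it was 0.0230 (adjusted 0.311). Leaving out a library gave 0.0160 to 0.0278. The granulocyte difference of 36039 CPM moved to -2278 CPM at 6 or more genes and -179 CPM without granulocyte-rich cells, and was 29178 to 39884 CPM leaving out a library. The globin difference in non-erythroid cells of -403 CPM moved to 307 CPM at 3 or more genes, 110 CPM without the deepest cells and 667 CPM at 6 or more genes, and was -538 to -60.4 CPM leaving out a library, the latter without replicate 3; these last leave-outs, for both differences in CPM, were chosen after seeing the data. The share of cells with a non-erythroid partner moved by less than 1 SD in all settings run. The alternative with the per-library files was not run, since their wells carry no clump number. Sums of 3529 transcripts in the shallowest group limit what can be seen in low genes.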
